A study of Mus musculus with 12 samples.

Results

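The miR-34 family was followed through the 12 arrays of a tunicamycin time course in mouse embryonic fibroblasts. Members were taken by name from the arrays' own annotation as mmu-miR-34a, mmu-miR-34b-5p and mmu-miR-34c (miR-34a, miR-34b-5p and miR-34c from here on), which are 3 of the 650 miRNAs on the array, and all 3 passed the filter on dim probes that left 175 miRNAs for testing. The fibroblasts, on a C57BL/6 background, were either ATF6aWT (wild type, WT) or ATF6aKO (ATF6a-deficient, KO). Untreated cells of each genotype stand beside cells given tunicamycin, at 2 ug/mL, for 12 or 24 h, which makes 6 groups with 2 arrays each, and the labels describe the arrays of a group as 2 independent experiments. The labels do not say whether a genotype was represented by 1 embryo line or several, nor how ATF6a was disrupted, and the untreated groups serve both time points. The design asked which miRNAs responded to 12 h of tunicamycin in an ATF6a-dependent way. The arrays carry miRNA probes only, so the ATF6a transcript itself was not analysed here.

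Tunicamycin blocks N-linked glycosylation and so makes proteins misfold in the endoplasmic reticulum. ATF6a is a membrane-bound sensor of that stress whose cut-off cytoplasmic part acts as a transcription factor. The miR-34 miRNAs are known as direct transcriptional targets of p53 and repress transcripts of the cell cycle and of survival genes. miR-34a comes from its own locus, whereas miR-34b and miR-34c are cut from 1 shared primary transcript. Wild type p53 in embryonic fibroblasts is known to drive all of them after DNA damage.

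The sequences below are shown because the members share the bases that choose a miRNA's targets while differing at some others. How well their probes tell the members apart was not tested. They are RefSeq entries of build GRCm38.p6, 5′ to 3′, with the seed (bases 2 to 8) in capitals. RefSeq gave a mature sequence for 2 of the 3 members, and miR-34c is therefore named only.
miR-34a (miR-34a-5p): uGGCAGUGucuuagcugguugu
miR-34b-5p: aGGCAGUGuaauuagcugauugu
miR-449a (miR-449a-5p): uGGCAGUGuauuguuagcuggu
miR-449c (miR-449c-5p): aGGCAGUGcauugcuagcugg
Among 1738 mature mouse miRNAs in that table, 4 carried this seed, namely miR-34a-5p, miR-34b-5p, miR-449a-5p and miR-449c-5p. The count could not include miR-34c, which had no mature sequence there. Compared base by base from their 5′ ends without a gap, miR-34a-5p (22 bases) and miR-34b-5p (23 bases) were alike at 11 of 22 positions. Because the lengths differ and no gap was allowed, later bases were compared out of register, and the count understates how alike the sequences are. The mature miR-34a-5p lies at chr4:150068473-150068494 on the plus strand, and miR-34b-5p at chr9:51103610-51103632 on the minus strand. The hairpins of miR-34c and miR-34b lie 451 bases apart on chromosome 9.

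Every level below is a log2 value: the mean background-subtracted intensity of a probe's spots, divided by the array's 75th percentile over 87 probes that stood above background on all 12 arrays, with the 2 probes of a member averaged. A difference of 1 is thus a doubling, and levels are compared between arrays for 1 member, never between members, because probes differ in brightness. A probe counted as above background on an array where more than 50% of its spots did. The 2 miR-34a probes were above background on all 12 arrays. For miR-34b-5p the dimmer probe was above background on 8 arrays and the brighter on 11, and for miR-34c on 8 and 12. The 4 arrays that missed were the second replicates of the treated groups, and on the KO 12 h replicate 2 array neither miR-34b-5p probe was above background, so its value there is that of a dim signal.

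Those 4 arrays were read in their own scanning run. The untreated arrays shared 1 slide and the treated arrays another, which means that an effect of tunicamycin cannot be told apart from one of the slide. WT and KO arrays lay in different rows of each slide, so genotype and row cannot be told apart either. The 4 arrays of run 4 had 73 to 101 of the tested miRNAs above background, against 127 to 166 on the other 8. Their negative-control SD was 4.557 to 12.107 intensity units, the highest on the KO 12 h replicate 2 array, against 2.215 to 3.149 elsewhere. Of 7 fibroblast and mesenchymal marker miRNAs on the array 6 were tested, and their summed log2 level was 4.50 to 4.82 in the untreated groups and 3.64 to 4.20 in the treated ones. No marker of epithelial, haematopoietic, endothelial, neural or liver cells was above background on any array, while 1 of 4 muscle and 1 of 8 pluripotent markers was on at least 1. The part of the fibroblast marker levels and of the slide in the results below was not tested.

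In wild type cells miR-34a was lower after tunicamycin at both times. Its level was -1.16 and -1.12 on the untreated arrays, -2.06 and -1.99 at 12 h, and -1.59 and -1.55 at 24 h. The 3 groups did not overlap, the 12 h arrays were the lowest and the 24 h arrays lay between. Here and below, overlap between groups of 2 arrays was looked at for the members only. How many of all tested miRNAs separated likewise was not counted. miR-34a fell by 0.88 on the log2 scale at 12 h (SE 0.10, limma adjusted p = 0.000753), to 0.54 of the untreated level, and ranked 13th by p of the 175 miRNAs tested. At 24 h its difference was -0.43 ± 0.10 (SE, adjusted p = 0.0131), or 0.74 of the untreated level. Both times are read against the same 2 untreated arrays. Calls were common in these comparisons, with 44.6% of tested miRNAs called at 12 h and 41.1% at 24 h, and the median of all tested was -0.27 and -0.21, so miR-34a was lower than most at 12 h (rank 146 from the top by difference) and less so at 24 h (rank 111).

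The 12 h decrease of miR-34a was called by either probe alone and in each of the 12 fits that left out 1 array, with values from -0.91 to -0.85. It was not called with scaling on all probes (-1.56, adjusted p = 0.622), quantile normalization (-1.25, 0.182), normexp background (-0.55, 0.126) or the authors' unscaled deposited table (-0.72, 0.397), and all 4 were below 0. In that order, those settings called 0, 10 and 5 of 175 and 0 of 204 tested miRNAs. The fit above called 78 of 175. The 24 h call was lost in 3 of the 12 fits that left out 1 array, each of them a WT array (adjusted p = 0.054 to 0.0631), and by the brighter probe alone (-0.32, 0.107). It was also lost with scaling on all probes (-0.29, 0.992), quantile normalization (-0.41, 0.758), normexp background (-0.13, 0.629), the summed signal (-0.72, 0.181), the deposited table (-0.96, 0.45) and no filter on dim probes (-0.43, 0.0617). In that order, these called 0, 9 and 9 of 175, 27 and 0 of 204 and 49 of 650 tested miRNAs. The fit above called 72 of 175. Spots of 1 probe disagreed most on the WT 12 h replicate 1 array, where their coefficient of variation was 58.1% and 76.4% for the 2 miR-34a probes, against 42.0% or less on the other 11 arrays. With the median over spots in place of the mean, the 12 h difference was -0.72 (adjusted p = 0.00433).

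**Figure D1:**
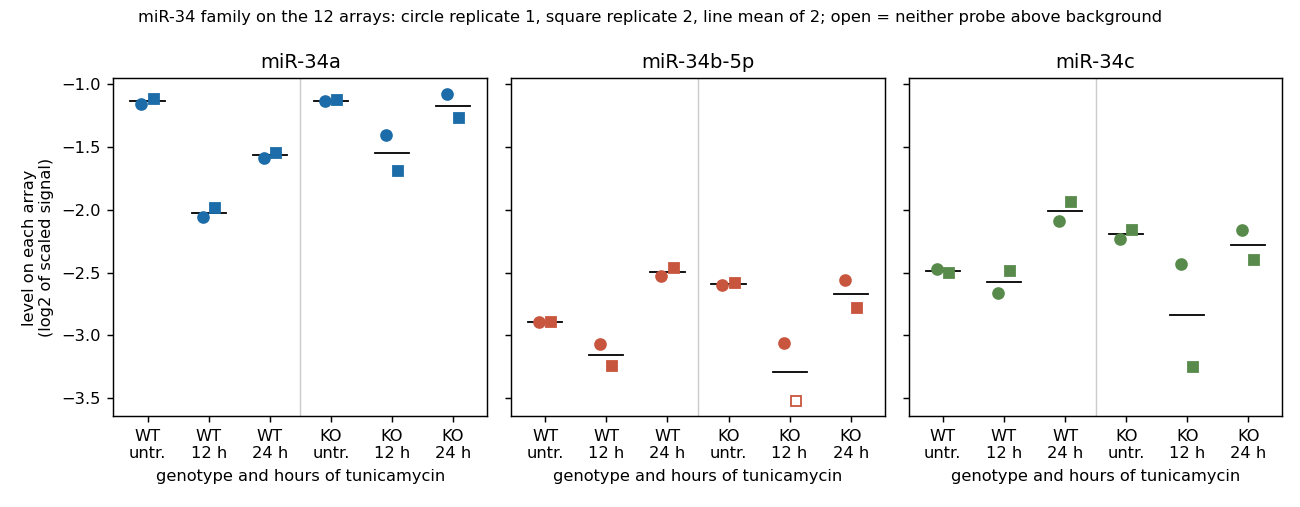
Level of each miR-34 family member (log2 of scaled signal, vertical axis) on every array, by genotype and hours of tunicamycin (horizontal axis); circles are replicate 1, squares replicate 2, lines the mean of 2 arrays, and the open square marks the array on which neither probe was above background. miR-34a lies between -2.06 and -1.99 in WT cells at 12 h, below every other array, while miR-34c in KO cells at 12 h spreads from -3.25 to -2.43.

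Neither member of the shared transcript was called in wild type cells. miR-34b-5p was at -2.89 on both untreated WT arrays, at -3.07 and -3.24 at 12 h, and at -2.53 and -2.46 at 24 h. The 12 h arrays were thus the lowest and the 24 h arrays the highest, with no overlap, yet neither difference from untreated passed the test (-0.26 ± 0.15, adjusted p = 0.216 at 12 h; 0.39 ± 0.15, adjusted p = 0.0767 at 24 h). miR-34c stood at -2.47 and -2.50 untreated, -2.66 and -2.49 at 12 h, and -2.09 and -1.94 at 24 h. Its 12 h arrays spanned the untreated ones (-0.09 ± 0.24, adjusted p = 0.801), and its 24 h arrays were higher than both without passing the test (0.46 ± 0.24, adjusted p = 0.183). At 12 h miR-34b-5p passed by the dimmer probe alone (-0.46, adjusted p = 0.023) and with array weights (-0.26, 0.0482). Those settings called 79 and 98 of the 175 tested miRNAs. Over the fits that left out 1 array, the 24 h differences ran from 0.36 to 0.43 for miR-34b-5p and from 0.39 to 0.54 for miR-34c. In the authors' deposited table the 24 h differences of miR-34b-5p and miR-34c were -0.18 and -0.10.

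In ATF6a-deficient cells all 3 members were lower at 12 h by their means, and 2 passed the test. miR-34a stood at -1.14 and -1.13 untreated, -1.41 and -1.69 at 12 h, and -1.08 and -1.27 at 24 h. miR-34a fell by 0.41 at 12 h (SE 0.10, adjusted p = 0.0366), while at 24 h its arrays lay on both sides of the untreated ones. miR-34b-5p was at -2.60 and -2.58 untreated, -3.06 and -3.52 at 12 h, and -2.56 and -2.78 at 24 h. It fell by 0.70 at 12 h (SE 0.15, adjusted p = 0.0167), with this miRNA above background on 1 of the 2 arrays of that group, so no fold is given. miR-34c was at -2.23 and -2.16 untreated, -2.43 and -3.25 at 12 h, and -2.16 and -2.40 at 24 h. Its 12 h arrays differed from each other by more than replicate 1 differed from the untreated cells, and its difference of -0.64 ± 0.24 did not pass (adjusted p = 0.121). The background in this comparison was 17.1% of tested miRNAs called, with a median of -0.09.

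The KO 12 h calls were not kept in all fits that left out 1 array. The array KO 12 h replicate 2 gave the lowest level of every member in KO cells, and without it the 12 h differences were -0.27 for miR-34a (adjusted p = 0.0903), -0.48 for miR-34b-5p, which stayed called, and -0.23 for miR-34c. The miR-34a call was kept in 3 of the 12 fits that left out 1 array. It was lost without any 1 of the WT arrays, although the difference stayed at -0.41 there. The miR-34b-5p call was kept in 10 fits and lost in those without an untreated KO array. Neither call was made when the fit held only the 2 groups compared (adjusted p = 0.265 and 0.25), where 0 of the 175 tested miRNAs were called. The difference of miR-34b-5p was 0.11 in the deposited table, the other sign, and -0.17 with the scaled summed signal.

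At 24 h limma called no member in KO cells, where 10.3% of tested miRNAs were called, and none had an unadjusted p under 0.05 (0.617 to 0.748). The differences from untreated were -0.04 for miR-34a (95% interval -0.28 to 0.21), -0.08 for miR-34b-5p (-0.44 to 0.28) and -0.08 for miR-34c (-0.64 to 0.48). The arrays of each member overlapped between the groups, and the intervals of miR-34b-5p and miR-34c are too wide to say that they were at the untreated level.

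**Figure D2:**
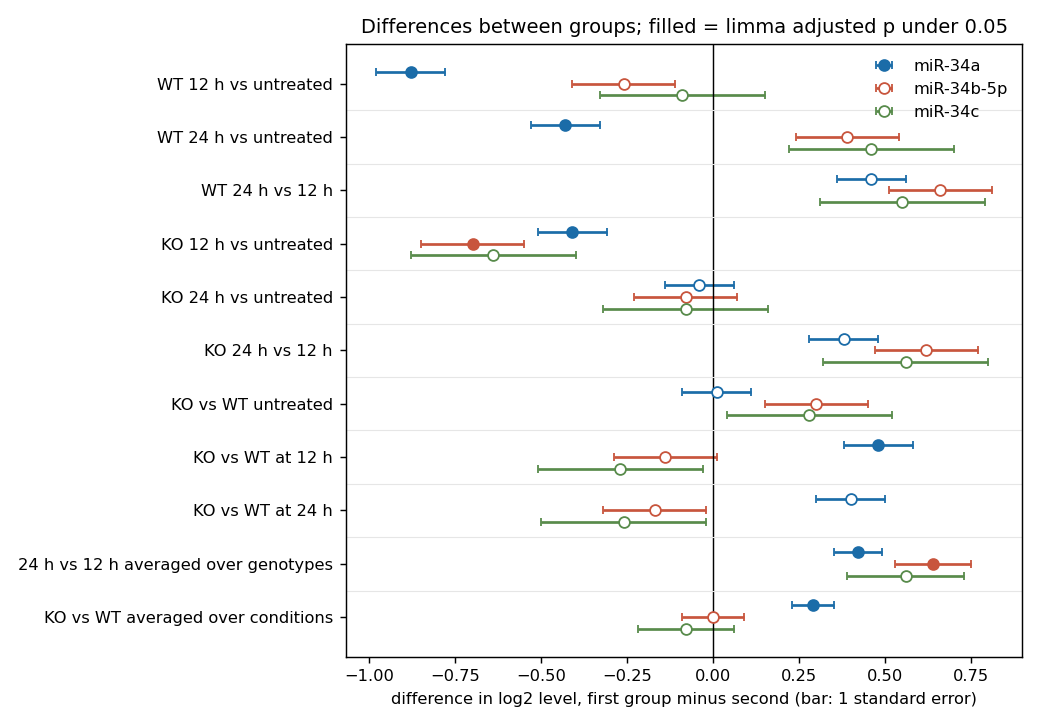
Differences in log2 level (horizontal axis, first-named group minus the second) for 11 group comparisons (vertical axis) and the 3 members; bars are 1 standard error of the limma fit and filled points passed an adjusted p of 0.05. miR-34a is filled at -0.88 and -0.43 for WT cells at 12 and 24 h, while miR-34b-5p is filled at -0.70 for KO cells at 12 h and at 0.64 for 24 against 12 h.

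Between 12 and 24 h every member stood higher at the later time in both genotypes. This comparison lies within 1 slide and within each scanning run. The 12 h arrays lay in slide columns 1 (replicate 1) and 4 (replicate 2), and the 24 h arrays in columns 3 and 2. Time and slide column therefore cannot be told apart. In WT cells the differences were 0.46 ± 0.10 for miR-34a, 0.66 ± 0.15 for miR-34b-5p and 0.55 ± 0.24 for miR-34c, and none passed on its own (adjusted p = 0.0973, 0.0973 and 0.437), with 1.14% of miRNAs called. In KO cells they were 0.38 ± 0.10, 0.62 ± 0.15 and 0.56 ± 0.24 (adjusted p = 0.149, 0.0957 and 0.448), with 2.29% called. Over the fits that left out 1 array, the WT differences ran from 0.43 to 0.49, 0.57 to 0.74 and 0.47 to 0.64. The KO differences ran from 0.24 to 0.51, 0.4 to 0.85 and 0.15 to 0.97. Averaged over the genotypes, miR-34a rose by 0.42 ± 0.07 and miR-34b-5p by 0.64 ± 0.11 (both adjusted p = 0.0161), and miR-34c differed by 0.56 ± 0.17 without passing (adjusted p = 0.133). Of all tested miRNAs 8% passed here and the median was 0.04. By size of the increase, miR-34b-5p, miR-34c and miR-34a ranked 6, 9 and 14 of 175. The miR-34b-5p values include the KO 12 h replicate 2 array, where neither of its probes was above background, and its dimmer probe was not above background on any of the 4 run 4 arrays.

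Within run 3, averaged over the genotypes, these 24 h against 12 h differences were 0.40 for miR-34a, 0.52 for miR-34b-5p and 0.42 for miR-34c, and within run 4 they were 0.43, 0.76 and 0.70. The increase was thus seen in both runs. It depended on the scaling of the arrays. In the deposited table, which is not scaled, all 3 had the other sign (-0.12, -0.42 and -0.41), and the median of all miRNAs there was -0.50, so that relative to that median they stood higher. Scaling on all probes and quantile normalization gave positive differences of 0.78 to 1.15 for miR-34a and miR-34b-5p and called neither. They called 0 and 1 of all 175 tested miRNAs in this comparison, against 14 in the fit above. Calls were also lost in 5 of the 12 fits without 1 array for miR-34a and in 4 for miR-34b-5p, with values of 0.35 to 0.49 and 0.53 to 0.75 over those fits.

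In untreated cells the miR-34a levels of the genotypes overlapped, whereas the arrays of treated cells separated them at both times. The untreated difference, KO minus WT, was 0.01 ± 0.10 (95% interval -0.24 to 0.25). At 12 h both KO arrays were above both WT arrays, and miR-34a was higher in the knockout by 0.48 ± 0.10 (adjusted p = 0.0355), or 1.39-fold, where 7.43% of miRNAs were called. The 24 h difference was 0.40 ± 0.10 and did not pass (adjusted p = 0.0588; background 9.71%). Within run 3 the 12 h and 24 h differences were 0.65 and 0.51, and within run 4 they were 0.31 and 0.29, so run 3 gave the larger genotype difference at both times. The 12 h call was kept in 9 of 30 alternative fits, 4 of them among the 12 that left out 1 array, with values of 0.34 to 0.62 over those 12. It was not made with scaling on all probes (0.20), quantile normalization (0.52), normexp background (0.24), the deposited table (0.67) or the brighter probe alone (0.31). The summed signal, no filter on dim probes and probes above background on all arrays also lost it. So did the lower floor, array weights, the median over spots and a fit of the compared groups alone. Of all tested miRNAs, the fit above called 13 of 175 here. Scaling on all probes, quantile normalization, normexp background, the deposited table, the summed signal and the compared groups alone called 0. The other alternatives that lost the call called from 1 of 57 (probes above background on all arrays) to 13 of 175 (the median over spots). At 24 h miR-34a passed with run as a random block (adjusted p = 0.0339) and with array weights. Both settings called 23 of 175 tested miRNAs there, against 17 in the fit above. Over the fits that left out 1 array, the 24 h difference ran from 0.3 to 0.49. Over all conditions miR-34a was higher in the knockout by 0.29 ± 0.06 (adjusted p = 0.00793), a mean that joins an untreated difference near 0 with the treated ones, and 34.3% of miRNAs were called in that comparison.

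miR-34b-5p and miR-34c showed no called genotype difference. The untreated means were higher in KO than in WT cells for both, by 0.30 ± 0.15 for miR-34b-5p and 0.28 ± 0.24 for miR-34c (adjusted p = 0.216 and 0.468), in a comparison where 28% of miRNAs were called. The miR-34b-5p difference ran from 0.29 to 0.31 over the fits that left out 1 array. After tunicamycin the order was the other way by the means. The differences were -0.14 and -0.27 at 12 h and -0.17 and -0.26 at 24 h for miR-34b-5p and miR-34c. At 12 h the groups overlapped, and without the KO 12 h replicate 2 array both differences turned to 0.089 and 0.14.

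The response to tunicamycin was then compared between genotypes, as the study's question asks. The response of miR-34a at 12 h was less negative in the knockout by 0.47 ± 0.15 (unadjusted p = 0.015, adjusted p = 0.109) and at 24 h by 0.39 ± 0.15 (unadjusted p = 0.0326, adjusted p = 0.15). For miR-34b-5p the differences had the other sign, -0.44 ± 0.22 and -0.47 ± 0.22 (adjusted p = 0.275 and 0.215), as did those of miR-34c, -0.55 ± 0.34 and -0.54 ± 0.34 (adjusted p = 0.423 and 0.368). No member passed in either test, where 9.71% and 13.1% of miRNAs did, so an ATF6a-dependent response was not shown for any member after adjustment. Over the 12 fits that left out 1 array, the 12 h differences ran from 0.33 to 0.61 for miR-34a. They ran from -0.67 to -0.21 for miR-34b-5p and from -0.96 to -0.14 for miR-34c. At 24 h the ranges were 0.3 to 0.48, -0.59 to -0.36 and -0.66 to -0.43. The KO 12 h group holds the widest replicate spread of every member, with an SD of 0.197 for miR-34a, 0.322 for miR-34b-5p and 0.581 for miR-34c. Leaving out 1 of its arrays narrows the spread that all comparisons share.

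The difference between 2 members on the same array does not depend on how arrays are scaled to each other, and it was looked at after the levels had been seen, so no test is given. The size of such a difference reflects the probes; its change between groups is what can be read. In WT cells miR-34a minus miR-34b-5p was 1.73 and 1.77 untreated, 1.01 and 1.25 at 12 h, and 0.95 and 0.91 at 24 h. In KO cells it was 1.46 and 1.45 untreated, 1.66 and 1.83 at 12 h, and 1.48 and 1.52 at 24 h. The 4 treated WT arrays were thus below all others, and no treated KO array was below the untreated KO arrays.

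miR-34a minus miR-34c followed the same course in WT cells. It was 1.31 and 1.38 in untreated WT cells, 0.60 and 0.49 at 12 h, and 0.50 and 0.39 at 24 h. In KO cells it was 1.09 and 1.03 untreated, 1.02 and 1.56 at 12 h, and 1.08 and 1.13 at 24 h. At 12 h replicate 1 was thus slightly below both untreated KO arrays, and replicate 2 was above them. The mean change from untreated was -0.79 and -0.89 in WT cells and 0.23 and 0.04 in KO cells. miR-34b-5p minus miR-34c, the pair cut from 1 transcript, stayed between -0.75 and -0.27 on all 12 arrays, with group means from -0.58 to -0.39. Because untreated arrays lie on the other slide, the change with treatment can be read only beside that slide, while the WT and KO arrays of each time share it.

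Calculated in 6 ways (the mean or the median over spots, normexp background, the deposited table, and either probe alone), the change of miR-34a against miR-34c in WT cells ranged from -0.80 to -0.54 at 12 h and from -0.96 to -0.60 at 24 h. Against miR-34b-5p it ranged from -0.80 to -0.44 and from -0.90 to -0.57. In KO cells at 24 h the changes lay between -0.10 and 0.07 for both pairs. In KO cells at 12 h they ranged from -0.64 to 0.49 and from -0.62 to 0.41, so no direction can be given there. The lowest of these came from the deposited table, whose KO 12 h replicate 2 value of miR-34a minus miR-34b-5p was 0.19.

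**Figure D3:**
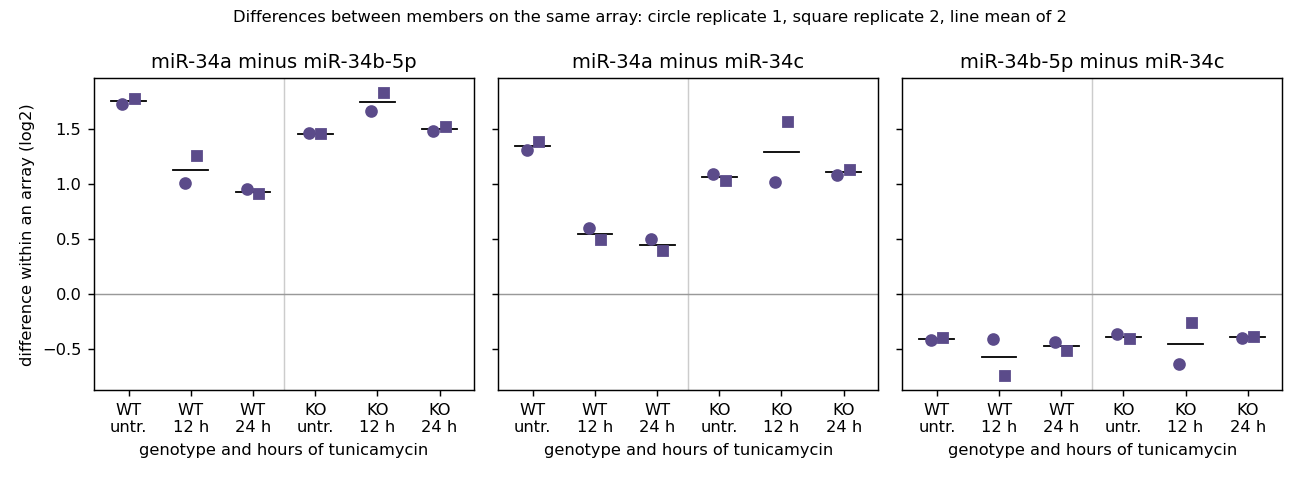
Difference in log2 level between 2 members on the same array (vertical axis) by genotype and hours of tunicamycin (horizontal axis); circles are replicate 1, squares replicate 2 and lines the mean of 2. miR-34a minus miR-34c lies at 0.39 to 0.60 on the treated WT arrays and at 1.02 to 1.56 on all others, while miR-34b-5p minus miR-34c stays between -0.75 and -0.27.

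Set in order over the 6 groups, the members had different lowest and highest points. For miR-34a the order from the lowest mean was WT 12 h (-2.02 ± 0.043, SD, n = 2), WT 24 h (-1.57 ± 0.026), KO 12 h (-1.55 ± 0.197), KO 24 h (-1.17 ± 0.132), untreated WT (-1.14 ± 0.029) and untreated KO (-1.13 ± 0.005). The replicates of neighbours overlapped in that order except between WT 12 h and WT 24 h and between KO 12 h and KO 24 h. For miR-34b-5p and miR-34c the order was the same in both: KO 12 h, WT 12 h, untreated WT, KO 24 h, untreated KO and WT 24 h. The group means ran from -3.29 to -2.50 for miR-34b-5p and from -2.84 to -2.02 for miR-34c. WT 24 h, second lowest for miR-34a, was thus the highest for both members of the cluster, without overlap with its neighbour in that order.

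Across the 12 arrays, Pearson's r was 0.92 between miR-34b-5p and miR-34c, 0.54 between miR-34a and miR-34b-5p and 0.37 between miR-34a and miR-34c. These are descriptions, since the arrays share slides, runs and scaling. Whether the probes of 1 member also take up another member was not tested. Among the other 58 miRNAs above background on all 12 arrays by at least 1 probe, the levels most like those of miR-34a were of miR-23b (r = 0.88), miR-199b* (0.79), miR-103 (0.79), let-7g (0.79) and miR-301a (0.78). Those most like miR-34c were of miR-27a (0.74), miR-151-5p (0.68), miR-23a (0.62), miR-22 (0.61) and miR-301a (0.58), none of which came as near as miR-34b-5p. No such list was made for miR-34b-5p, which was not above background on all arrays.

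**Figure D4:**
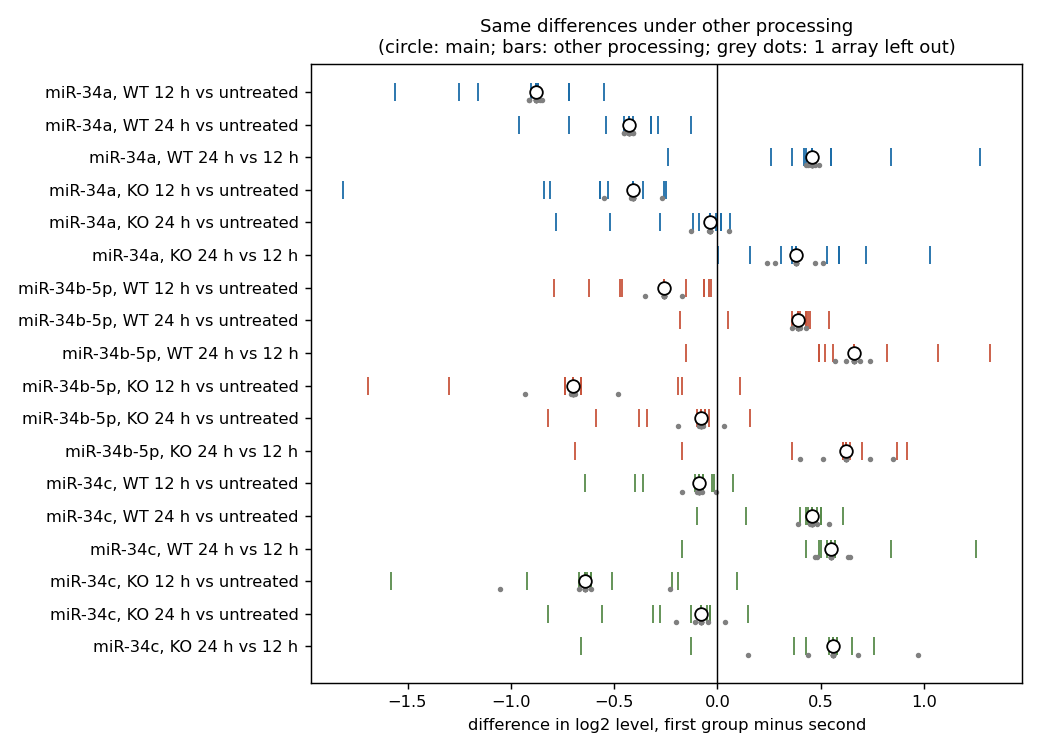
The differences of the 3 members between times (horizontal axis, log2, first-named group minus the second) under other processing; open circles are the values given in the text, coloured bars the other ways of processing the arrays and grey dots the fits without 1 array. miR-34a in WT cells at 12 h stays below 0 throughout, from -1.56 to -0.55. The 24 h against 12 h differences cross 0 in the deposited table, except that of miR-34a in KO cells.

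The relatives of the family did not pass the filter on dim probes. miR-449a, miR-449b and miR-449c, known from ciliated epithelia, were not above background on any array by any probe and were not tested. Of the opposite strands of the hairpins, miR-34b-3p and miR-34c* (miR-34c-3p) were on the array and neither reached the filter. Their sequences are given because they share a seed of their own, again in capitals.
miR-34b-3p: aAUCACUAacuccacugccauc
miR-34c* (miR-34c-3p): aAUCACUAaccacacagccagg
miR-34b-3p was above background only on the replicate 2 arrays at 12 h of both genotypes, which are run 4 arrays.

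Of 15 other miRNAs known to respond to p53, 6 were tested, and they did not move together. In WT cells at 12 h 0 of 6 rose and 1 fell, with a median of -0.14 against -0.27 for all 175 tested, of which 44.6% were called (11 higher, 67 lower). The 1 that fell was miR-143, whose processing p53 is known to promote and which is also among the fibroblast markers, at -1.30 ± 0.27 (adjusted p = 0.0068), and miR-143 fell again at 24 h (-1.50 ± 0.27, adjusted p = 0.00371). At 24 h 1 of 6 rose, which was miR-149 (0.93 ± 0.19, adjusted p = 0.00644), and the median was -0.14 against -0.21, with 41.1% of all tested called. In KO cells limma called none of the 6 at either time (1 and 0 had an unadjusted p under 0.05), with medians of -0.17 and -0.06 against -0.09 and 0.00, and 17.1% and 10.3% of all tested called. None of the 6 was called between 12 and 24 h averaged over genotypes, where 0 had an unadjusted p under 0.05, and the median was 0.21 against 0.04. The response of miR-149 at 24 h was lower in the knockout by limma's test of the difference (-1.05 ± 0.27, adjusted p = 0.045), where 13.1% of all tested were called.

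Of 7 miRNAs reported to target the p53 transcript, 5 were tested, and limma called 0 of 5 at 12 h in either genotype (1 in each had an unadjusted p under 0.05), against 44.6% of all tested in WT and 17.1% in KO cells. At 24 h miR-125b-5p fell in WT cells (-1.03 ± 0.24, adjusted p = 0.0118), and none was called in KO cells, where 1 had an unadjusted p under 0.05, against 41.1% and 10.3% of all tested. The list medians were -0.17 in WT and -0.38 in KO cells at 12 h, where those of all tested were -0.27 and -0.09, and 0.01 and -0.15 at 24 h, where those of all tested were -0.21 and 0.00. Over all conditions miR-125a-5p was lower in the knockout (-0.41 ± 0.13, adjusted p = 0.0461), where 34.3% of all tested were called.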

How the data were processed

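Total RNA was labelled with Cy3 and hybridised to 1-colour miRNA arrays with 13715 spots each. Per the file headers, the deposited intensity is the scanner software's background-subtracted signal (the submitters' processing notes name Agilent Feature Extraction 10.7.1.1). The deposited table holds the authors' log2 values: all 2034 equal log2 of the software's summed signal of detected miRNAs within 0.00001, unscaled, with array medians of 5.70 to 8.23.

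From the spot files, outlier spots were dropped, spots of a probe averaged, each array divided by its 75th percentile over 87 common probes, values floored at 0.0309 (log2 -5.02) and the 306 probes that stood above background in a whole group, or more, averaged into 175 miRNAs. The 6 groups were fitted together in limma 3.58.1 (R 4.3.3; 6 residual degrees of freedom plus 1.16 prior), with Benjamini-Hochberg adjustment over the 175 within each of 13 comparisons at 0.05; simulated data served to test the fit. With 2 arrays a group, their number limits precision, and p-values measure the spread between these samples, which may be technical.

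Members and lists were chosen with earlier results of these data known. Named beyond the members are, by rule, the 5 miRNAs most correlated with each member above background on all arrays and, from the lists of p53-responsive and p53-targeting miRNAs, those called, the latter chosen after their values were seen. Tried as alternatives were other scalings, backgrounds, filters, floors, probe rules, array weights, a replicate or run block and leaving out each array. Normexp used the median spot signal. Same-numbered arrays deviated together among the treated groups (r 0.82 to 0.94) and between the untreated ones (0.74), but oppositely across them (-0.66 to -0.45), so the numbers do not pair all samples.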

Additional observations from a re-analysis of the deposited data

Results flagged for a closer look

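The opposite strands of the miR-34b/c hairpins gave signal in values that no comparison used. The scanner software called miR-34b-3p and miR-34c* detected on the replicate 2 arrays at 12 h, and the authors' deposited table lists miR-34b-3p at log2 5.81 for WT and 7.47 for KO, and miR-34c* at 6.90 for WT and 8.51 for KO. Neither was detected on the other 10 arrays, untreated ones included. By the spots, both miR-34b-3p probes were well above background on these 2 arrays and neither miR-34c* probe was. The same 2 arrays alone carried 26 of the 286 miRNAs that the software detected anywhere, and both lie in column 4 of their slide and in run 4. The part of the array in this signal was not tested.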

How the results depend on the processing

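The number of members called (of 3) changed with the processing, and the cause was not tested unless fewer samples or genes explain it by construction. Scaling on all probes, quantile normalization, normexp background and the deposited table called 0 in every comparison, against 1 for WT 12 h, 1 for WT 24 h, 2 for KO 12 h, 1 for KO against WT at 12 h, 2 for 24 h against 12 h averaged over genotypes and 1 for KO against WT averaged. The summed signal called 0 in all of these but WT 12 h (1). Over all tested miRNAs, the fit above called 2 to 78 of 175, depending on the comparison. Scaling on all probes called 0 of 175, quantile normalization at most 10 and normexp background at most 9. The deposited table called at most 3 of 204 and the summed signal at most 29. Without the filter on dim probes the member calls of WT 24 h, KO 12 h, KO against WT at 12 h and averaged 24 h against 12 h were 0. In that order, 49, 14, 4 and 4 of 650 tested miRNAs were called there. The brightest probe, which for the members is the brighter one taken alone, gave 0 for WT 24 h, KO against WT at 12 h and averaged KO against WT, and 1 for KO 12 h and averaged 24 h against 12 h. The dimmer probe alone gave 2 for WT 12 h and 1 for WT 24 h against 12 h, KO 24 h against 12 h, KO 12 h and averaged 24 h against 12 h. The lower floor and the median over spots gave 1 for KO 12 h, 0 for KO against WT at 12 h and 1 for averaged 24 h against 12 h. Array weights gave 2 for WT 12 h, WT 24 h against 12 h and untreated KO against WT, 3 for WT 24 h and for the 24 h response difference, 1 for KO 12 h and KO against WT at 24 h, and 0 for KO against WT at 12 h. Of all 175 tested miRNAs they called 98 (78 above) for WT 12 h and 91 (72) for WT 24 h. For untreated KO against WT they called 93 (49) and for the 24 h response difference 51 (23). They called fewer for KO 12 h, 16 (30), and KO against WT at 12 h, 5 (13). A fit of the compared groups alone gave 3 members for WT 24 h, 2 for untreated KO against WT and the 24 h response difference, and 0 for KO 12 h, KO against WT at 12 h and averaged 24 h against 12 h. In that order, it called 91, 95, 42, 0, 0 and 2 of all 175 tested miRNAs. Run as a random block added 1 member for KO 24 h against 12 h and 1 for KO against WT at 24 h, and run as a fixed block gave 2 for WT 24 h. The replicate block changed no call of a member, with miR-34a in WT cells at 12 h at -0.88. The higher floor changed no count of members, and probes above background on all arrays left no miR-34b-5p to count; miR-34a was then not called for KO 12 h (adjusted p = 0.109), KO against WT at 12 h (0.276), averaged 24 h against 12 h (0.0605) or averaged KO against WT (0.0793).

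Leaving out 1 array gave 1 to 1 for WT 12 h, 0 to 0 for KO 24 h, 0 to 3 for WT 24 h, WT 24 h against 12 h, KO 12 h, KO 24 h against 12 h, the 24 h response difference and averaged 24 h against 12 h, 0 to 2 for KO against WT at 12 h and the 12 h response difference, 0 to 1 for untreated and 24 h KO against WT, and 1 to 2 for averaged KO against WT. Every count above that with all arrays came without KO 12 h replicate 1 or 2, whose wide spread then no longer enters the fit. In each such case more of all tested miRNAs were called as well. Signs changed among these fits for KO 24 h (miR-34a -0.13 to 0.055, miR-34b-5p -0.19 to 0.034, miR-34c -0.20 to 0.039), for miR-34a in untreated KO against WT (-0.014 to 0.028), and for KO against WT at 12 h (miR-34b-5p -0.37 to 0.089, miR-34c -0.68 to 0.14).

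Sign changes were most frequent in the deposited table, where the arrays are not scaled. There miR-34c was 0.075 for WT 12 h, miR-34b-5p and miR-34c -0.18 and -0.10 for WT 24 h, the 3 members -0.24, -0.15 and -0.17 for WT 24 h against 12 h and -0.12, -0.42 and -0.41 for the average over genotypes. miR-34b-5p and miR-34c were 0.11 and 0.094 for KO 12 h, -0.69 and -0.66 for KO 24 h against 12 h, 0.93 and 0.79 for KO against WT at 12 h, 0.38 and 0.31 at 24 h, and 0.14 and 0.019 for the 12 h response difference. With the summed signal they were -0.17 and -0.13 for KO 24 h against 12 h, 0.53 and 0.39 for KO against WT at 12 h and 0.30 and 0.18 for the 12 h response difference. Scaling on all probes turned miR-34a to -0.041 for KO against WT at 24 h and to -0.25 and -0.49 for the response differences. Differences near 0 also changed sign. For untreated KO against WT miR-34a was -0.062 with normexp, -0.078 with the summed signal, -0.0023 by the dimmer probe and -0.0027 by the median over spots, and miR-34b-5p was -0.0076 with normexp. For KO 24 h the members were 0.06, 0.16 and 0.15 with normexp, and miR-34a was 0.015 by the brighter probe.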
